A study of Mus musculus with 6 samples.

Results

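The proteasome genes described here are the 50 genes, of 16579 in the deposited table, whose symbol matches the pattern Psma to Psmg followed by a number. The pattern takes in the core particle, its interferon-inducible subunits, the regulatory cap, the activators, the inhibitor and the assembly chaperones, and it was applied to names only, without any measured value. RNA was sequenced from MKs sorted out of the bone marrow of 3-month-old mice, in 3 libraries labelled Becn1f/f and 3 labelled Becn1f/f;Pf4-iCre. Both genotypes carry loxP sites in Becn1, which encodes an autophagy protein, and only the second carries Pf4-iCre, a Cre recombinase driven by platelet factor 4 regulatory sequence in the megakaryocytic lineage. The labels number the libraries 1 to 3 within a genotype without stating whether each came from 1 mouse or from pooled mice, so the tests measure the spread between libraries.

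The proteasome degrades proteins that have been tagged with ubiquitin, and beside autophagy it is the main route by which a cell removes its proteins. A barrel of stacked rings, the core particle, holds the proteolytic sites on its inner face. Outer rings of alpha subunits form the gate, and inner rings of beta subunits carry the catalytic residues. A cap with a ring of ATPases binds ubiquitinated substrates, unfolds them and feeds them into the barrel. Interferon exchanges the 3 catalytic beta subunits for immune counterparts, which alter the peptides that are made for antigen presentation. In the megakaryocytic lineage the proteasome is known for its part in platelet formation, and inhibitors of it lower platelet counts in patients.

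Total estimated counts ranged from 16467560 to 17156728 per library. Becn1 itself had 84.53, 72.19 and 81.92 FPKM (fragments scaled to transcript length and library size) in Becn1f/f 1, 2 and 3, and 68.67, 72.54 and 73.01 in Becn1f/f;Pf4-iCre 1, 2 and 3. The ranges overlapped, and the log2 fold change of -0.15 (95% interval -0.42 to 0.12, edgeR) left the targeted transcript near its control level in the libraries labelled Becn1f/f;Pf4-iCre. The values sum over the whole gene and do not separate its floxed part. Of 16 MK markers, Itga2b (CD41) had 142 to 187 CPM (counts scaled to library size) and Itgb3 had 79.8 to 143 CPM, whereas the defining platelet genes Pf4, Ppbp and Gp9 reached no more than 6.73, 10.2 and 1.78 CPM in any library. Summed markers of 2 other lineages separated the genotypes. Macrophage markers made up 0.0810% to 0.0849% of counts in Becn1f/f and 0.0858% to 0.102% in Becn1f/f;Pf4-iCre (11 of 12 tested were higher). Erythroid markers made up 0.0676% to 0.0948% and 0.0496% to 0.0655% (13 of 13 lower). In both lists the gap between the nearest libraries was small beside the spread within a genotype. Neutrophil markers took the largest share, 0.895% to 1.62%, with overlapping genotypes and 13 of 14 lower in Becn1f/f;Pf4-iCre. MK markers made up 0.0292% to 0.0387% of counts in Becn1f/f and 0.0301% to 0.0369% in Becn1f/f;Pf4-iCre. In every library that was below the macrophage, erythroid and dendritic cell shares and above the B cell and the T and NK cell shares. CPM and shares of counts are not scaled to transcript length, and the lists differ in size. The other lists overlapped as well, with 9 of 14 MK, 7 of 8 B cell, 4 of 6 T and NK cell and 3 of 8 dendritic cell markers lower. Of all tested genes, 54.5% had a log2 fold change below 0. Fewer cells of a type and less RNA per cell cannot be told apart in these bulk libraries, and the part of these cell types in the proteasome values was not tested.

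Promoters of proteasome genes are shown because the family is known to be regulated as a unit, through antioxidant response elements bound by Nfe2l1 and Nfe2l2 and, for the immune subunits, through elements read by interferon-activated factors. RefSeq promoter windows (GRCm38.p6, 250 bases before to 50 after a start) were found for 42 of the 50 genes, 45 windows in all, and both strands were searched for 3 motifs. The antioxidant response element core, TGACNNNGC, was in 6 member windows (13.3%) and in 12.4% of all 32851 promoter windows. The interferon regulatory factor motif GAAANNGAA was in 7 member windows (15.6%) against 8.56% of all, and the gamma-activated site TTCNNNGAA was in 3 (6.67%) against 8.30% of all. Psmd9 alone held 2 of these motifs, which did not overlap. Stretches of 30 bases around the match, motif in capitals, are printed 5′ to 3′ on the strand of the gene for both constitutive catalytic subunits that held the antioxidant element, Psmb5 (chr14:54618023-54618052, minus strand) and Psmb6 (chr11:70525327-70525356, plus strand), for the cap chaperone gene Psmd9 (chr5:123228149-123228178, plus strand), for the immune subunit Psmb8, the only immune subunit with a match (chr17:34198088-34198117, plus strand), and for the core subunit Psmb3 (chr11:97703262-97703291, plus strand).
Psmb5, antioxidant response element core: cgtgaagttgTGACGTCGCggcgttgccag
Psmb6, antioxidant response element core: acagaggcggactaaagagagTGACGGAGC
Psmd9, antioxidant response element core: atctagccggTGACCCCGCccacttccaag
Psmb8, gamma-activated site: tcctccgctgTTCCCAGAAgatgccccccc
Psmb3, interferon regulatory factor motif, reverse strand: acagtgacttTTCACTTTCcgctttccata
In Psmb6 the capitals start 9 bases before the annotated start of transcription, in Psmd9 31, in Psmb5 47, in Psmb8 97 and in Psmb3 162. The RefSeq starts of Psmb3, Psmb5, Psmb8 and Psmd9 lie downstream of the first base of their GENCODE genes, which for Psmd9 is far upstream, at 123169413. These are matches of letters in a window and not measured binding sites.

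Proteasome genes were among the more abundant transcripts of the sorted cells. The 34 subunits of the core, the immune core and the cap lay between the 85.3rd and the 97.8th percentile of mean FPKM over all genes of the table, with a median at the 94.1st. Psmd11, a cap subunit that bridges cap and core, was the lowest of them at 39.7 FPKM, and Psma7, an alpha ring subunit, the highest at 231 FPKM (means of 6 libraries). Members that work outside the mature particle had lower levels, namely 16.6 to 31.7 FPKM for the 4 core assembly chaperones Psmg1 to Psmg4, 7.97 to 22.7 FPKM for the cap chaperones Psmd5, Psmd9 and Psmd10, and 7.84 FPKM for the inhibitor Psmf1.

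**Figure D1:**
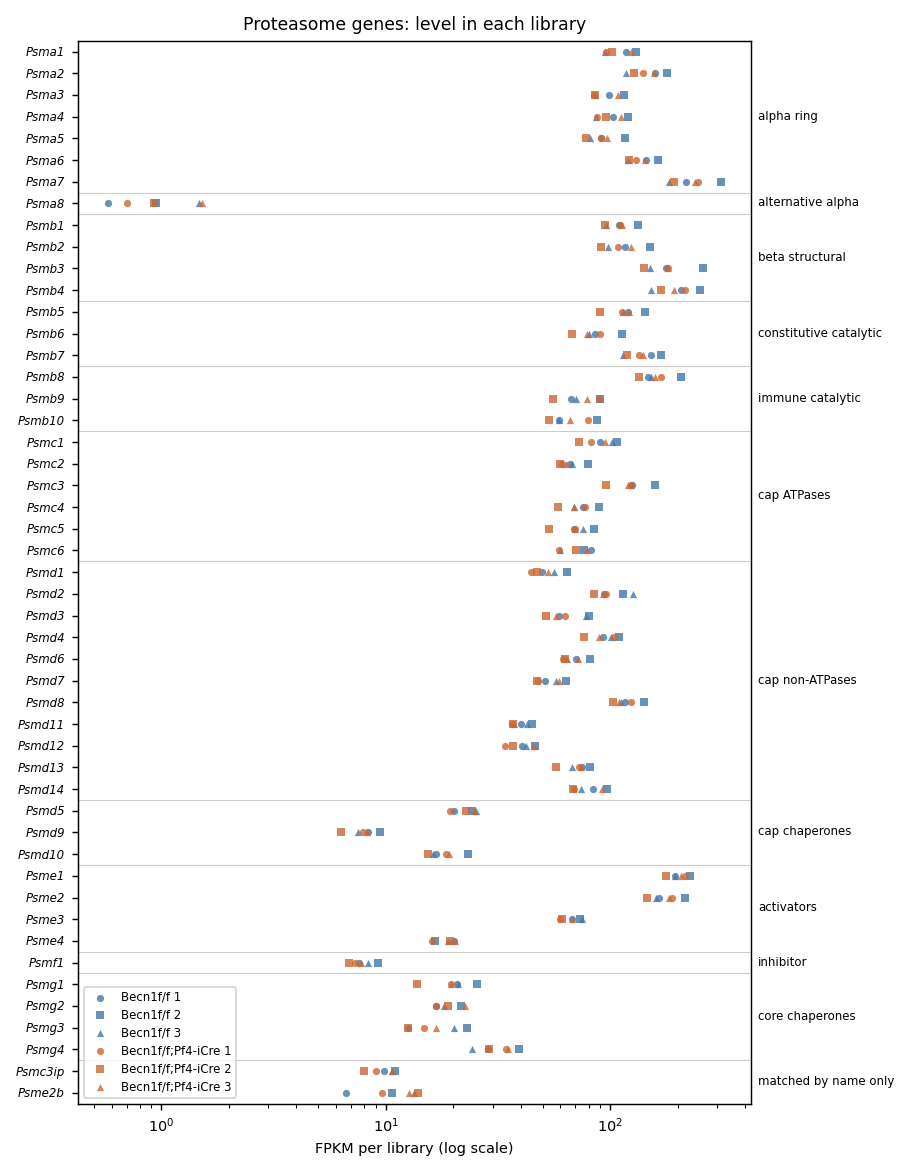
Level of each of 49 proteasome genes (rows, grouped by role) in FPKM on a log scale, with 1 marker per library, blue for Becn1f/f and orange for Becn1f/f;Pf4-iCre. Subunits of the particle lie between 34.1 and 310.5 FPKM, chaperones and the inhibitor below 40 FPKM, and Psma8 near 1 FPKM, with both colours mixed in most rows.

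Within the particle, transcript levels were of the same order but not equal. The 14 constitutive core subunits spanned 2.70-fold in mean FPKM, from Psmb6 (85.8) to Psma7 (231), with a coefficient of variation of 32.6% between genes. The 17 cap subunits spanned 3.13-fold, from Psmd11 (39.7) to Psmc3 (124.5), with a coefficient of variation of 31.8%. Levels of the core were higher than those of the cap in each library. The mean FPKM of the cap was 55.6%, 53.2% and 69.2% of that of the core in Becn1f/f 1, 2 and 3. In Becn1f/f;Pf4-iCre 1, 2 and 3 it was 55.1%, 56.7% and 54.6%, so Becn1f/f 3 stood alone. In the alpha ring, the 7 members other than Psma8 had mean levels of 92.2 to 231 FPKM, and the 4 structural beta subunits Psmb1 to Psmb4 had 109 to 197 FPKM.

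The pattern also took in genes that are not made in every cell. Psmb11, the catalytic subunit of thymic cortical epithelium, was at 0 to 0.03 FPKM in the 6 libraries and was the 1 member that failed the expression filter. Psma8, the alpha subunit of meiotic germ cells, passed it with 0.58, 0.95 and 1.47 FPKM in Becn1f/f 1, 2 and 3 and 0.70, 0.93 and 1.52 in Becn1f/f;Pf4-iCre 1, 2 and 3, so its genotypes spanned the same range. Of the members matched by name only, Psmc3ip encodes a meiotic recombination cofactor that binds Psmc3 and had 7.96 to 10.9 FPKM. The other, Psme2b, shares 68.7% of its 50-base stretches with the activator gene Psme2, so reads of the pair can be assigned to either gene.

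Transcripts of both kinds of subunit were present for each catalytic site. For the caspase-like site, the constitutive subunit Psmb6 had 85.21, 112.40 and 80.12 FPKM in Becn1f/f 1, 2 and 3 and 90.33, 67.54 and 79.11 in Becn1f/f;Pf4-iCre 1, 2 and 3. Its immune counterpart Psmb9 had 67.16, 90.19 and 70.62 FPKM in the former and 88.99, 55.45 and 79.17 in the latter. The level of Psmb9 was below that of Psmb6 in 5 of 6 libraries and level with it in Becn1f/f;Pf4-iCre 3.

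For the trypsin-like site, the constitutive Psmb7 had 151.54, 167.87 and 113.96 FPKM in Becn1f/f 1, 2 and 3 and 133.84, 118.27 and 139.45 in Becn1f/f;Pf4-iCre 1, 2 and 3. The immune Psmb10 had 59.33, 86.86 and 59.24 FPKM and then 79.45, 53.53 and 65.87, which was below Psmb7 in every library. At the chymotrypsin-like site, which carries most of the activity of the particle and is the main target of clinical inhibitors, the order was the other way. Here the immune Psmb8 had 147.54, 205.62 and 152.30 FPKM in Becn1f/f 1, 2 and 3 and 168.99, 133.79 and 158.92 in Becn1f/f;Pf4-iCre 1, 2 and 3. The constitutive Psmb5 had 120.22, 143.35 and 114.41 FPKM and then 113.21, 89.64 and 121.25, below Psmb8 in all 6 libraries. Of the 50-base stretches of the Psmb5 transcript, 57.1% recur in other annotated genes, mainly the pseudogene Gm3375, so its level depends on how shared reads were counted.

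**Figure D2:**
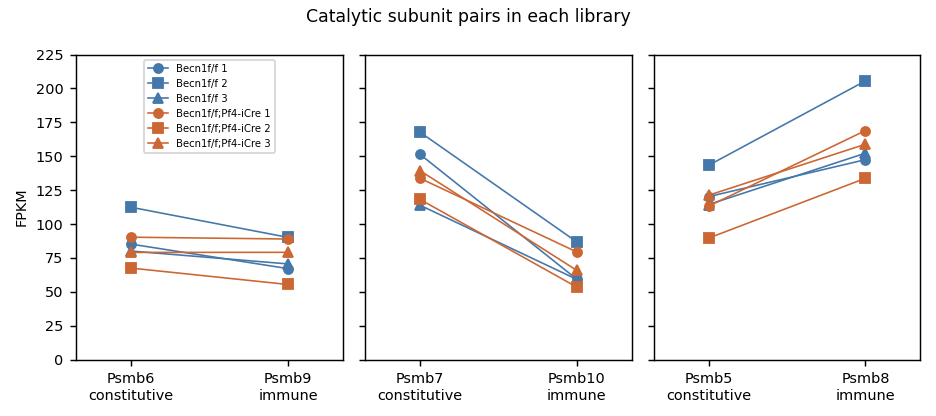
FPKM of the constitutive and the immune subunit of each catalytic site, joined by a line for each library (blue Becn1f/f, orange Becn1f/f;Pf4-iCre). Lines fall from Psmb7 to Psmb10, rise from Psmb5 to Psmb8 and are nearly flat from Psmb6 to Psmb9, and the genotypes overlap in all 3 panels.

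The immune share of each site, that is the immune subunit as a percent of the FPKM of the pair, varied between sites more than between genotypes. For Psmb9 with Psmb6 it was 44.1%, 44.5% and 46.8% in Becn1f/f 1, 2 and 3 and 49.6%, 45.1% and 50.02% in Becn1f/f;Pf4-iCre 1, 2 and 3. The means were 45.1% ± 1.49 and 48.2% ± 2.74 (SD, n = 3 each, exact two-sided permutation test, p = 0.2). For Psmb10 with Psmb7 the means were 32.1% ± 3.47 and 33.5% ± 3.28 (n = 3 each, exact permutation test, p = 0.6), and for Psmb8 with Psmb5 they were 57.0% ± 1.91 and 58.8% ± 1.82 (n = 3 each, exact permutation test, p = 0.3). All 3 ranges overlapped between genotypes, and 3 libraries against 3 cannot give an exact p below 0.1. The 3 immune subunits made up 46.2% ± 2.42 of the summed FPKM of the 6 catalytic subunits in Becn1f/f and 48.02% ± 1.73 in Becn1f/f;Pf4-iCre (SD, n = 3 each).

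The genes of 2 immune subunits lie next to the peptide transporter genes in the major histocompatibility complex. In GRCm38, Psmb9 (chr17:34181987-34187764, minus strand) is followed by Tap1 (chr17:34187553-34197225, plus strand), Psmb8 (chr17:34197721-34201454, plus strand) and Tap2 (chr17:34203527-34216321, plus strand). The log2 fold changes of these neighbours were -0.02 for Psmb9, -0.01 for Tap1, -0.11 for Psmb8 and -0.14 for Tap2, and none passed a threshold. Psmb9 and Tap1 overlap at their 5′ ends by annotation, and whether the counting used strand is not given in the sources used here.

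Among the activators, which open the core gate without ATP, the interferon-inducible Psme1 and Psme2 were the most abundant. Psme1 had 194.00, 226.50 and 194.14 FPKM in Becn1f/f 1, 2 and 3 and 215.98, 177.42 and 207.06 in Becn1f/f;Pf4-iCre 1, 2 and 3. Psme2, its partner in the same ring, had 164.33, 216.35 and 159.69 FPKM and then 189.14, 145.44 and 182.54. The pair are neighbours on chromosome 14 (Psme1 chr14:55578123-55581529, Psme2 chr14:55587441-55591113, GRCm38, opposite strands), and the level of Psme1 was 1.05 to 1.22 times that of Psme2 in the 6 libraries. The ratio was 1.15 ± 0.0891 in Becn1f/f and 1.17 ± 0.0474 in Becn1f/f;Pf4-iCre (SD, n = 3 each), a difference smaller than the spread. The nuclear activators were less abundant, with mean levels of 67.4 FPKM for Psme3 and 18.6 FPKM for Psme4.

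The comparison of genotypes asked whether proteasome transcripts differed in the mice with Pf4-iCre, and no member passed a threshold. Of the 49 tested members, 0 were DEGs (fold change of at least 1.5 and unadjusted P below 0.05), against 2.3% of all 12256 genes tested with edgeR's quasi-likelihood test. At an unadjusted P below 0.05 alone, 0 members were lower, against 2.39% of all genes, and 0 were higher, against 3.92%. DESeq2 gave 0 as well. Adjusted p-values of the members lay between 0.80 and 0.997 (edgeR, Benjamini-Hochberg over all tested genes), and 5 genes of the whole table were below 0.05.

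The intervals limit how large a change could have gone undetected. Standard errors of the members' log2 fold changes were 0.12 to 0.40, with a median of 0.16 against 0.17 for all genes. The 95% interval excluded a rise of 1.5-fold for 47 of 49 members and a fall of 1.5-fold for 42, and none extended to a fall of 2-fold. The members whose upper bound exceeded a 1.5-fold rise were Psma8 and Psme2b, both of low level.

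The fold changes leaned downward. Of the 49 members, 44 (89.8%) had a log2 fold change below 0, against 54.5% of all tested genes, and the median was -0.12 (interquartile range -0.19 to -0.06) against -0.02 (-0.15 to 0.11) for all genes. Subunits of 1 particle are not independent of each other, and the lean moved with 2 libraries. Summed over all members, the level was 4024, 4729 and 3753 CPM in Becn1f/f 1, 2 and 3 and 4009, 3344 and 3988 CPM in Becn1f/f;Pf4-iCre 1, 2 and 3. Becn1f/f 2 was the highest and Becn1f/f;Pf4-iCre 2 the lowest, and the other 4 libraries, of both genotypes, lay between 3753 and 4024 CPM.

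**Figure D3:**
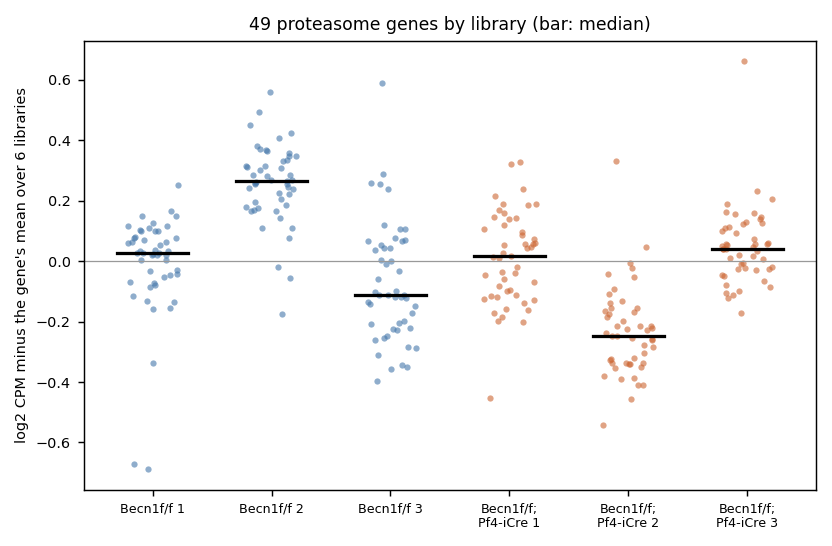
Log2 CPM of each of 49 proteasome genes minus its mean over the 6 libraries, with 1 point per gene and a bar at the median, by library (blue Becn1f/f, orange Becn1f/f;Pf4-iCre). The medians are 0.27 in Becn1f/f 2 and -0.25 in Becn1f/f;Pf4-iCre 2 and lie between -0.11 and 0.04 in the other 4 libraries.

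Over the members as a whole the same 2 libraries stood apart, though not in every part of the particle. Becn1f/f 2 had the highest CPM of all libraries for 40 of 49 members (17.1% of all tested genes), and Becn1f/f;Pf4-iCre 2 the lowest for 31 (19.4% of all tested genes). The median deviation of the members from their own mean was 0.27 on the log2 scale in Becn1f/f 2 and -0.25 in Becn1f/f;Pf4-iCre 2. Without Becn1f/f;Pf4-iCre 2, 36 of 49 members were below 0, with a median log2 fold change of -0.039. Without Becn1f/f 2, 27 were below 0, and without both libraries 17 were, with a median log2 fold change of 0.065. The share of all tested genes below 0 was not computed for these fits. The libraries also differed in how their counts followed transcript length and GC content. Over 11953 genes, deviations from the gene's mean had a Spearman correlation with transcript length of -0.45 in Becn1f/f 2 and 0.35 in Becn1f/f;Pf4-iCre 2, and of -0.14 to 0.16 in the others. With GC content the correlation was 0.34 in Becn1f/f 2 and -0.44 in Becn1f/f;Pf4-iCre 2, and the others ranged as widely, from -0.49 in Becn1f/f;Pf4-iCre 3 to 0.43 in Becn1f/f;Pf4-iCre 1. Core subunits have short transcripts, with a median of 1162.5 bases against 1819 for the cap. Their median deviations were 0.32 in Becn1f/f 2 and -0.24 in Becn1f/f;Pf4-iCre 2, against 0.24 and -0.25 for the cap. In Becn1f/f 3 the core was as low, at -0.25, while the cap was at 0.0035. The 3 immune subunits were at 0.36 in Becn1f/f 2 and nearly as high, at 0.32, in Becn1f/f;Pf4-iCre 1. With trends in GC content and length taken out of every library, the median log2 fold change remained at -0.12 and 81.6% of members were below 0. The median and the share below 0 of all tested genes were not computed for that fit. The cause of the differences between libraries was not tested.

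**Figure D4:**
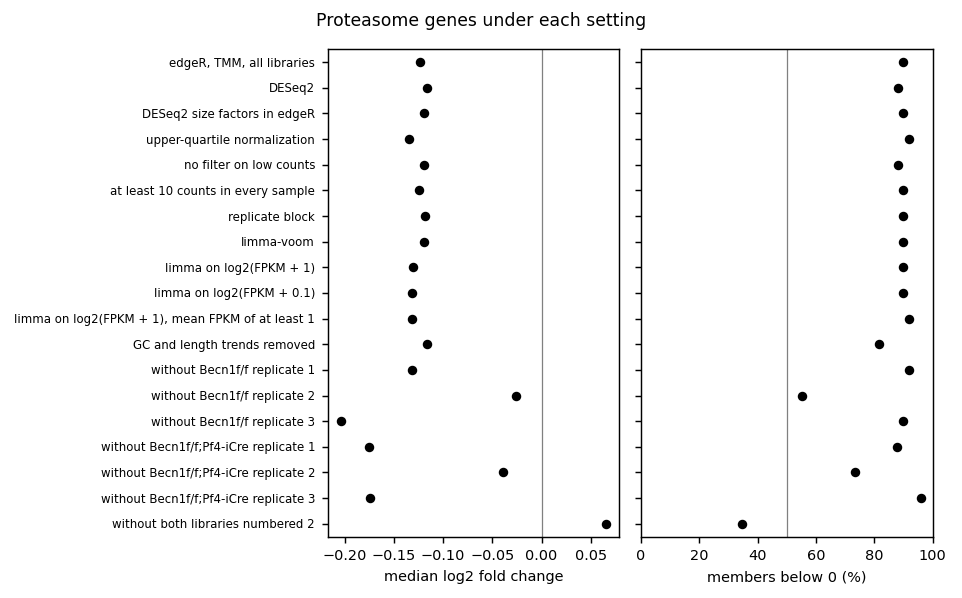
Median log2 fold change of the proteasome genes (left) and percent of them below 0 (right), 1 row for each way of processing. With all libraries kept, the median stays near -0.12 and the share between 81.6% and 91.8%, and they move to -0.03 and 55.1% without Becn1f/f 2 and to 0.065 and 34.7% without both libraries numbered 2. The share of all tested genes below 0, 54.5%, was computed for the first row only.

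Among roles with 3 or more members, the lean was widest in cap ATPases (median -0.22) and constitutive catalytic subunits (-0.21) and narrowest in immune subunits and activators (-0.03 each), and differences between roles were not tested. The 7 alpha ring subunits had log2 fold changes of -0.11 to -0.06 (7 of 7 below 0), and the 4 structural beta subunits had -0.21 to -0.07 (4 of 4). Psmb5, Psmb6 and Psmb7 were at -0.21, -0.21 and -0.13, with 95% intervals of -0.56 to 0.14, -0.59 to 0.17 and -0.50 to 0.24. Psmb8, Psmb9 and Psmb10 were at -0.11, -0.02 and -0.03, with intervals of -0.47 to 0.25, -0.46 to 0.41 and -0.45 to 0.40. The 6 ATPases of the cap had log2 fold changes of -0.25 (Psmc3) to -0.06 (Psmc6), and the 11 other cap subunits had -0.32 (Psmd3) to -0.12, all below 0. The 3 cap chaperones had -0.15 to -0.03 and the 4 activators -0.18 (Psme3) to 0.0046 (Psme4). Of the 4 core chaperones, Psmg1 and Psmg3 were below 0 and Psmg2 and Psmg4 above.

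**Figure D5:**
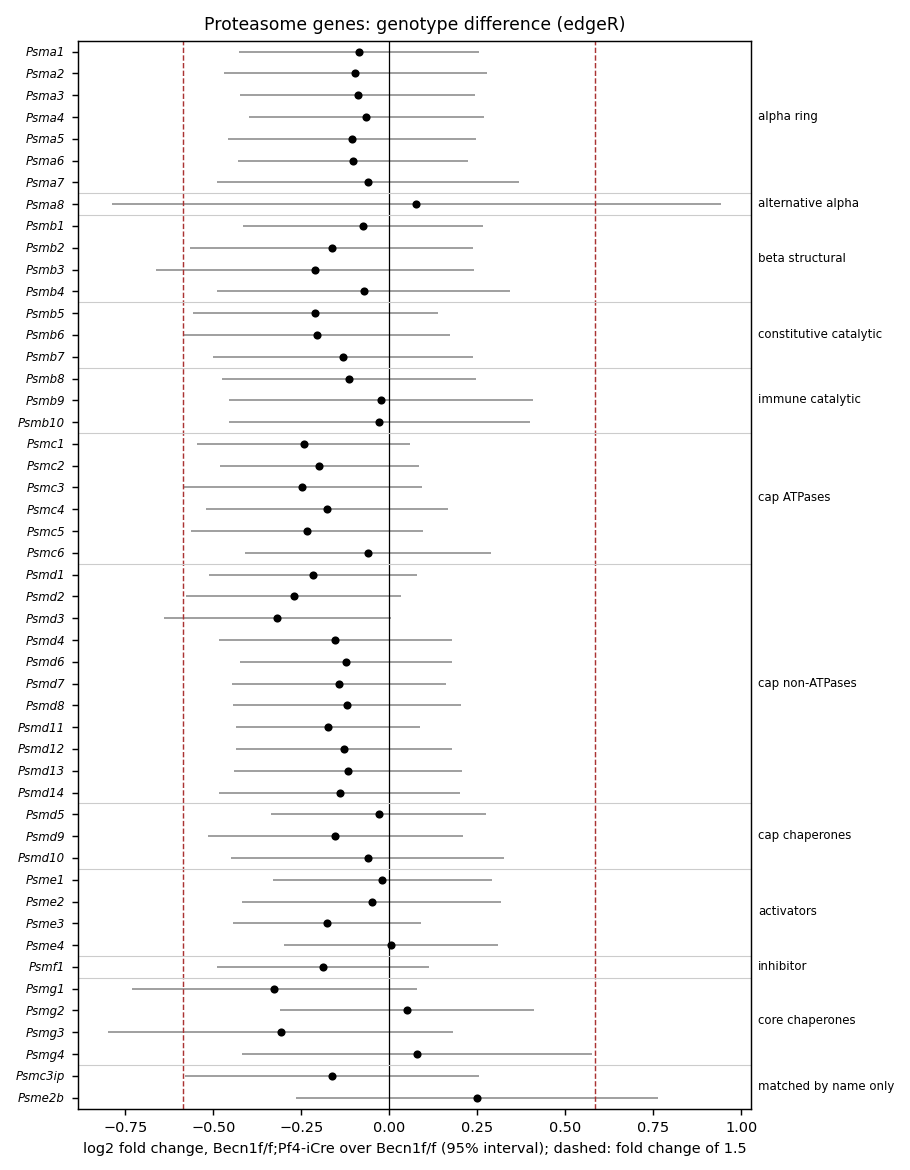
Log2 fold change of each tested proteasome gene (Becn1f/f;Pf4-iCre over Becn1f/f, edgeR) with its 95% interval, grouped by role, with dashed lines at a 1.5-fold change. Points lie between -0.33 and 0.25, 44 of 49 are left of 0, and every interval includes 0.

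Of the core and the cap, the cap had mean levels that did not overlap between genotypes. The mean FPKM of its 17 subunits was 75.4, 89.3 and 77.6 in Becn1f/f 1, 2 and 3 and 71.9, 63.7 and 75.2 in Becn1f/f;Pf4-iCre 1, 2 and 3. The gap between the nearest libraries of the genotypes, 75.4 and 75.2 FPKM, was small beside the spread within each, 80.7 ± 7.47 and 70.3 ± 5.90 (SD, n = 3 each). Taken as the median over the 17 subunits, the cap level overlapped. For the 14 core subunits the means were 135, 168 and 112 FPKM and then 131, 112 and 138, which overlapped.

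The lowest unadjusted P belonged to a cap subunit. Psmd3, which helps hold the lid of the cap together, had 59.22, 80.56 and 78.21 FPKM in Becn1f/f 1, 2 and 3 and 63.10, 51.92 and 57.31 in Becn1f/f;Pf4-iCre 1, 2 and 3. The ranges overlapped through Becn1f/f 1, and its log2 fold change was -0.32 (SE 0.15, unadjusted P = 0.053, adjusted p = 0.80, edgeR). The scaffold subunit Psmd2, which docks ubiquitin receptors and shuttle factors, had 93.76, 113.68 and 126.38 FPKM and then 95.50, 84.45 and 92.46. Its log2 fold change of -0.27 had an adjusted p of 0.85 (edgeR), and 26.1% of its 50-base stretches recur in other genes.

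In 4 members the CPM of the genotypes did not overlap and was lower in Becn1f/f;Pf4-iCre (5.18% of all tested genes did so), and in 0 it was higher (5.42% of all). They were the ATPase Psmc2, the bridging subunit Psmd11, the activator Psme3 and the inhibitor Psmf1, named for this after their values were seen. Psmd11 had 40.18, 44.88 and 42.69 FPKM in Becn1f/f 1, 2 and 3 and 36.36, 36.96 and 37.41 in Becn1f/f;Pf4-iCre 1, 2 and 3, with a log2 fold change of -0.17. Psmc2 had 65.96, 79.74 and 67.71 FPKM and then 60.93, 59.56 and 63.62, with a log2 fold change of -0.20. Both had their genotypes apart in FPKM too, and adjusted p-values of 0.90 (edgeR). Psmc3 and Psmg1 were lower without overlap in FPKM but overlapped in CPM. The share of all genes apart in FPKM was not computed.

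Psme3 lies on chromosome 11 at 101316213 to 101323537 (GRCm38), 13.9 kb from the targeted gene Becn1. Its levels were 67.71, 73.35 and 74.63 FPKM in Becn1f/f 1, 2 and 3 and 59.85, 61.01 and 67.84 in Becn1f/f;Pf4-iCre 1, 2 and 3. In FPKM the genotypes touched, with Becn1f/f 1 just below Becn1f/f;Pf4-iCre 3, and the log2 fold change was -0.18 (SE 0.12, adjusted p = 0.90, edgeR). The inhibitor Psmf1 had 7.63, 9.20 and 8.33 FPKM and then 7.27, 6.88 and 7.72, which also met in FPKM. Psmc3ip, 190.5 kb from Becn1, had a log2 fold change of -0.16 with overlapping libraries. In all, 10 members lie on chromosome 11, and the 50 are spread over 16 chromosomes.

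Besides Psmd3, the members with the 3 largest log2 fold changes in each direction were chaperones, Psme2b and Psma8. Psmg1, a chaperone that starts the assembly of the alpha ring, had 20.77, 25.41 and 20.88 FPKM in Becn1f/f 1, 2 and 3 and 19.51, 13.83 and 19.54 in Becn1f/f;Pf4-iCre 1, 2 and 3. Its log2 fold change was -0.33 (SE 0.19, 95% interval -0.73 to 0.08, adjusted p = 0.88, edgeR), with Becn1f/f;Pf4-iCre 2 well below the other libraries. Psmg3, another chaperone of the ring, had 12.60, 22.91 and 20.16 FPKM and then 14.84, 12.57 and 16.75, so Becn1f/f 1 lay among the Becn1f/f;Pf4-iCre libraries. Its log2 fold change was -0.31 (SE 0.22, adjusted p = 0.91, edgeR).

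On the higher side, Psme2b had 6.68, 10.67 and 13.31 FPKM in Becn1f/f 1, 2 and 3 and 9.60, 13.91 and 12.64 in Becn1f/f;Pf4-iCre 1, 2 and 3, with a log2 fold change of 0.25 (SE 0.24, adjusted p = 0.95, edgeR). The partner chaperone of Psmg3, Psmg4, had 28.57, 39.10 and 24.23 FPKM and then 34.16, 28.95 and 34.98, with a log2 fold change of 0.08. The fold change of Psma8 was also 0.08, with an SE of 0.40. All 3 overlapped between genotypes, and the spread within a genotype was larger than the difference.

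Partners and regulators of the proteasome were read from a list of 29 names, of which 24 were tested. Of these, 13 were lower and 11 higher, 0 were DEGs, and an unadjusted P below 0.05 was reached by 3 with higher and 0 with lower levels, with a median log2 fold change of -0.04. Over all tested genes 3.92% were higher and 2.39% lower at that P, 2.3% were DEGs and 54.5% were below 0. Pomp, the maturation factor of the core, had 174.42, 216.77 and 140.84 FPKM in Becn1f/f 1, 2 and 3 and 182.22, 165.94 and 204.73 in Becn1f/f;Pf4-iCre 1, 2 and 3, with a log2 fold change of 0.06. Adrm1, a ubiquitin receptor of the cap, had 63.70, 72.70 and 62.00 FPKM and then 67.20, 50.49 and 54.87, with a log2 fold change of -0.18. Nfe2l1, the factor that raises proteasome genes when proteasome activity falls short, had 24.24, 26.95 and 31.96 FPKM and then 27.56, 24.77 and 24.34, with a log2 fold change of -0.10. All 3 overlapped between genotypes.

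The 3 past the unadjusted P were Zfand5, Ddi2 and Nfe2l2. Zfand5, which binds the particle and raises its activity, had 49.94, 48.35 and 48.01 FPKM in Becn1f/f 1, 2 and 3 and 58.42, 77.66 and 64.74 in Becn1f/f;Pf4-iCre 1, 2 and 3. Its log2 fold change was 0.48 (SE 0.14, unadjusted P = 0.0048, adjusted p = 0.44, edgeR), with the genotypes apart. Ddi2, the protease that activates Nfe2l1, had 24.99, 31.50 and 34.21 FPKM and then 41.39, 34.90 and 38.18, with a log2 fold change of 0.36 (unadjusted P = 0.028, adjusted p = 0.71, edgeR). Nfe2l2, the master factor of the antioxidant response, had 74.29, 55.96 and 52.70 FPKM and then 91.79, 80.67 and 68.78, overlapping through Becn1f/f 1, with a log2 fold change of 0.41 (unadjusted P = 0.039, adjusted p = 0.76, edgeR). After adjustment over all genes none of them passed.

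Of the 7 listed genes usually induced together with the immune subunits, 0 had an unadjusted P below 0.05 (edgeR). Among all tested genes, 3.92% passed that P with higher levels and 2.39% with lower levels. With so few genes, 0 calls cannot separate this list from all tested genes. Of the listed genes described here, log2 fold changes ran from -0.14 for Tap2 to 0.24 for B2m, the light chain of class I molecules. Nlrc5 was at 0.15, Irf1 at 0.04, Tap1 at -0.01 and Tapbp at -0.07.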

How the data were processed

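RNA of MKs sorted from bone marrow was measured in 6 libraries, grouped by the genotype and number in their labels. The authors filtered reads, mapped them (HISAT and Bowtie2, GRCm39, in the submitters' notes) and deposited an estimated count, not normalized, and an FPKM value, which the authors scaled by the length of the transcript and the size of the library, for 16579 genes. The counting tool and annotation are not given in the sources used here. Estimated counts, not whole for 10.3% to 11.3% of genes, were rounded. Not used were 16 further columns of per-sample values, of which 4 are of a library that matches no sample, and 8 columns of group means.

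Genes passing edgeR's expression filter (12256) were TMM-scaled and compared by the quasi-likelihood test (edgeR 4.0.16, R 4.3.3, Benjamini-Hochberg, genotype as sole factor). CPM are TMM-scaled counts. DEG thresholds follow the study's methods. Levels were compared between genes in FPKM, except for the cell type markers. Those are given in CPM and shares of counts, which are not scaled to transcript length. Shared sequence was counted in 50-base stretches of each gene's longest transcript (GENCODE M21, GRCm38), matched by symbol, as were positions. All members are accounted for by role. Values in every library are given for the catalytic subunits, Psme1, Psme2 and the 3 largest log2 fold changes each way, and from the pathway list for Pomp, Adrm1, Nfe2l1 and genes with an unadjusted P below 0.05. Members, roles and lists were chosen with earlier results of these data known. Psmd2, Psmc2, Psmc3, Psmd11, Psme3 and Psmf1 were named after their values were seen. Alternatives were DESeq2 1.42.0, other normalizations and filters, limma 3.58.1 on counts and FPKM, a replicate block, removal of GC and length trends and leaving out libraries. Some genes of the pathway lists are not reported here. The edgeR comparison was tested on simulated counts. The precision is limited by 3 libraries per genotype. For members with few counts, such as Psma8 with 13 to 35 per library, counting error adds to this.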

Additional observations from a re-analysis of the deposited data

How the results depend on the processing

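The number of members past the DEG thresholds was 0 under each of the 11 alternatives with all libraries and the 6 fits without a library. The number lower at an unadjusted P below 0.05 was 0, against 2 with limma on log2(FPKM + 1) (Psmd11 and Psme3) and 3 with GC and length trends removed (Psmg1, Psmd2 and Psmd3), and 0 to 3 when a library was left out, with 3 without Becn1f/f 1 (Psmd2, Psmd3 and Psmg3) and 1 without Becn1f/f;Pf4-iCre 1 (Psmd3). The smallest adjusted p of a member was 0.60 to 0.98 over the alternatives with all libraries and 0.34 to 1.0 with libraries left out. Members below 0 numbered 44, and 17 to 47 with libraries left out, with 36 without Becn1f/f;Pf4-iCre 2, 27 without Becn1f/f 2 and 17 without both libraries numbered 2, a setting chosen after seeing the data. Shares of all genes below 0 were not computed for the alternatives or for the fits with libraries left out. The median log2 fold change was -0.12, and -0.20 to 0.065 with libraries left out (-0.039 without Becn1f/f;Pf4-iCre 2). The cap's mean FPKM in Becn1f/f;Pf4-iCre was 87.0% of that in Becn1f/f (84.0% to 91.9% with libraries left out), and the core's was 91.6% (83.6% to 102%).

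Among the 14 members computed singly, log2 fold changes that changed sign with GC and length trends removed were those of Psmb9 (0.037), Psmb10 (0.065), Psme1 (0.082) and Psme2 (0.0081). With libraries left out, the ranges that crossed 0 among these 14 were -0.29 to 0.035 for Psmb5, -0.35 to 0.078 for Psmb6, -0.30 to 0.10 for Psmb7, -0.22 to 0.16 for Psmb8, -0.21 to 0.32 for Psmb9, -0.21 to 0.33 for Psmb10, -0.11 to 0.16 for Psme1, -0.16 to 0.24 for Psme2, -0.28 to 0.45 for Psma8 and -0.068 to 0.43 for Psmg4. The difference in the immune share of Psmb10 with Psmb7 was -0.65 to 2.52 percentage points, below 0 without Becn1f/f 1 or without Becn1f/f;Pf4-iCre 1. The causes were not tested.

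Libraries of the same number correlated at 0.07, -0.28 and 0.20 in their deviations from the genotype means. Correlations between libraries of different numbers were not computed, so these values cannot show whether the libraries pair by number. The labels do not state whether same-numbered libraries were prepared together. With the replicate number as a block, 0 members were DEGs, 44 were below 0 and the median was -0.12, with a smallest adjusted p of 0.98.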
